A study of Mus musculus with 6 samples.

Results

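The unfolded protein response and the integrated stress response were followed through 38 genes in HL-1 cells, a line that was established from mouse atrial heart muscle. The genes were a given list of mouse symbols, matched to 38 of the 32739 Ensembl gene identifiers in the count files, and 37 of the 12047 genes kept by the filter on low counts were among them. They fall into 16 chaperones and folding factors of the endoplasmic reticulum (ER), 7 genes of ER-associated degradation, 4 genes for the stress sensors and XBP1, and 11 genes of the ATF4 branch. All 6 libraries came from cells grown in Claycomb medium and kept in hypoxia for 6 h, then reoxygenated for 1 h, times that follow the design text, since the sample descriptions read ReOx7h. The 3 vehicle libraries had 0 µM and the 3 BRL libraries 5 µM of BRL37344, named in the series as a β3-adrenergic agonist, and no normoxic group was analysed here. HL-1 is a single immortal line, and separate cultures are not stated for the libraries of a group. The p-values set the difference between groups against the spread of libraries within a group. That spread may be technical, so the p-values do not extend to new cultures.

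When unfolded proteins build up in the ER, the membrane sensors IRE1, PERK and ATF6 are set free from the chaperone BiP. IRE1 splices the messenger of XBP1, ATF6 is cut to release a transcription factor, and both then switch on chaperones and the machinery that draws misfolded proteins out to the proteasome. PERK phosphorylates the initiation factor eIF2, as other kinases do on lack of amino acids or haem; general translation drops while that of ATF4 goes up, and ATF4 switches on genes of amino acid supply and redox balance. In heart muscle the response is known to be engaged by ischaemia and reperfusion, and the calcium stores of the same compartment serve contraction. Splicing of Xbp1, cleavage of ATF6 and phosphorylation of eIF2 are not seen in counts per gene.

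Promoters of several chaperone genes are known to carry the binding site of ATF6 and NF-Y, the ER stress response element (ERSE), spelt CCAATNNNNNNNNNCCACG. Sites are shown for members whose values recur below, because the element was found in more than 1 of them. Chaperone genes already known to carry it may be among the given members, so its share among them is not an independent result. Promoters of 33 of the 38 genes were found in RefSeq (GRCm38.p6, 250 bases before to 50 bases after the start), a build other than that of the counts, so no count was placed by coordinate. An ERSE on either strand was present in 9 of these 33 genes (27.3%), against 37 of all 27025 genes with a promoter entry (0.137%). The 9 genes were Hspa5, Calr, Hsp90b1, Canx, Pdia6, Dnajc3, Creld2, Syvn1 and Derl3, and Hsp90b1 held a pair of them. In the lines that follow, each read 5′ to 3′ on the strand on which the motif reads as spelt, the CCAAT and CCACG boxes are in capitals.
Hspa5, chr2:34772015-34772053, plus strand: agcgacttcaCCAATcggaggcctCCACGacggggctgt
Calr, chr8:84847065-84847103, plus strand: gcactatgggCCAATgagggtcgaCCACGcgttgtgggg
Hsp90b1, chr10:86705628-86705666, minus strand: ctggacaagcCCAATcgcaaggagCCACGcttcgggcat
Hsp90b1, chr10:86705523-86705561, plus strand: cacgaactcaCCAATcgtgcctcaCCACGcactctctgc
Creld2, chr15:88819510-88819548, minus strand: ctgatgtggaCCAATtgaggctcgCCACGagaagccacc
Syvn1, chr19:6046522-6046560, plus strand: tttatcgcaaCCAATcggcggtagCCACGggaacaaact
Derl3, chr10:75893232-75893270, minus strand: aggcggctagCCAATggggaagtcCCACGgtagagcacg

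The boxes and their spacing are fixed by the search, and the 9 bases between them differed from gene to gene. The site of Syvn1 lay nearest to a gene start, 44 to 26 bases upstream, and the farther site of Hsp90b1 lay 212 to 194 bases upstream. ERSE-II, in which ATTGG and CCACG stand 1 base apart, was present in Herpud1 and Dnajb11 (12 of all genes, 0.0444%), and the core TGACGTGG of the XBP1 element UPRE in none of the 33 (0.714% of all genes). The C/EBP-ATF response element (CARE), at which ATF4 binds with C/EBP partners, was searched as TGATGNAA. It was present in Chac1, Trib3, Asns and Herpud1, in 12.1% of the 33 against 4.51% of all genes. The ERSE-II of Herpud1 and the CARE of Herpud1, Asns and Chac1 are shown with the motif letters other than N in capitals.
Herpud1, ERSE-II, chr8:94386367-94386397, plus strand: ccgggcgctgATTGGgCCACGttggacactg
Herpud1, CARE, chr8:94386307-94386334, minus strand: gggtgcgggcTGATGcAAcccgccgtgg
Asns, CARE, chr6:7693215-7693242, minus strand: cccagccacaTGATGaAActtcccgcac
Chac1, CARE, chr2:119351039-119351066, minus strand: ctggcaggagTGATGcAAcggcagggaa

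Herpud1 was the member that held both an ATF6-type and an ATF4-type sequence in this window. A match is a description of letters, and its use in these cells was not measured.

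Total expected counts ran from 4440168 to 5060049 per vehicle library and from 6812810 to 8332472 per BRL library, so that depth did not overlap between groups. Thinned to the smallest library, the median log2 fold change of the members was 0.26, as at full depth. Random thinning leaves the expected ratio of each gene unchanged, so this median cannot show what part depth has. That part was not tested. BRL replicate 1 stood apart from the other libraries. Transcripts encoded in mitochondria took 5.03% of its counts against 16.5% to 21.9% elsewhere, and the chi-square per degree of freedom between it and the other BRL libraries was 89.1 and 76.8, against 4.20 between those and at most 3.95 among vehicle libraries. Tests on the members are therefore also given without it. Of 13 cardiomyocyte and atrial markers none was at 0 in all libraries, and their summed level was 10833 to 11755 CPM in vehicle and 6718 to 8514 CPM in BRL. Of 9 fibroblast markers Dcn, Lum, Thy1 and Tcf21 had no counts and the sum was at most 6.08 CPM in any library; of 8 leukocyte markers Ptprc, Lyz2, Csf1r and Adgre1 had none and the sum was at most 4.89 CPM. The sum of 8 endothelial markers was 29.4 to 36.3 CPM in vehicle and 68.03 to 110.5 CPM in BRL, with Emcn at 0. Most of the difference lay in Kdr, which rose (edgeR adjusted p = 0.00189), and in Egfl7, which did not pass (0.0939). The means of Pecam1, Vwf, Tek, Cdh5 and Tie1 were lower in BRL and at most 1.97 CPM in vehicle. For 8 smooth muscle markers the sum was 3507 to 3913 CPM in vehicle. It was 1630 CPM in BRL replicate 1 and 2861 and 3099 CPM in replicates 2 and 3. The cardiomyocyte difference lay mostly in Myh6, Atp2a2 and Actc1, of which Myh6 fell. Myh6, Atp2a2, Actc1 and Myl4 were lower in every BRL library and Tnni3 was higher in every BRL library. Nppa, Tnnt2, Gata4, Nkx2-5, Myl7, Ryr2 and Tbx5 overlapped. The cardiomyocyte, endothelial and smooth muscle sums moved with the group, and their part in the results below was not tested; fewer cells of a kind and less RNA per cell cannot be told apart in bulk samples.

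Per transcript length, ER chaperones and folding factors held ranks 1 to 9 of the members by the vehicle mean. The others of that group ranked below Atf4, with Creld2 the lowest of them at rank 24. Levels in vehicle were taken as TPM, the length-corrected share of transcripts, from the deposited fractions. Hspa5, the gene of BiP, led with 1182 ± 215, followed by Hsp90b1, the ER form of HSP90, with 981 ± 173, and by Calr, the lectin chaperone calreticulin, with 792 ± 97.3 (SD, n = 3). The ranges of these neighbours overlapped, while every vehicle library had more Calr than any had of Pdia3, next in order with 563 ± 92.4. Atf4 was the most abundant member outside the chaperones, with 305 ± 24.6, and Xbp1 had 240.4 ± 31.9. The sensors were rare, with 36.7 ± 4.21 for Atf6, 15.7 ± 3.42 for Eif2ak3, the gene of PERK, and 11.8 ± 0.650 for Ern1, the gene of IRE1.

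**Figure D1:**
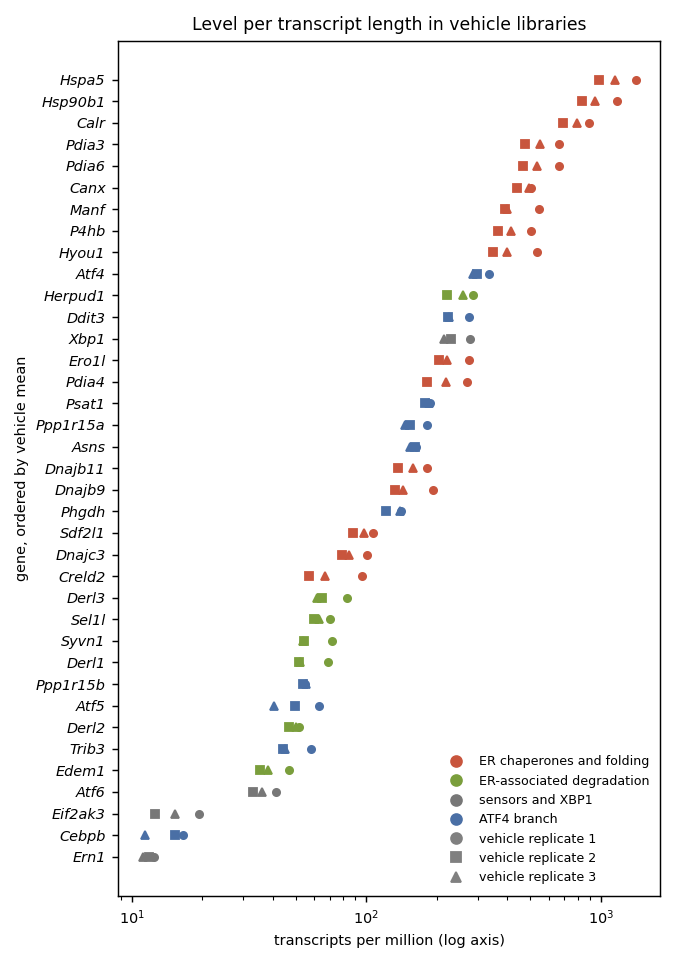
TPM (log axis) of 37 members in vehicle replicates 1, 2 and 3, ordered by the vehicle mean and coloured by role. Hspa5 leads and Ern1 is lowest; Chac1, with 1 count in 1 library, is left out.

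The comparison asked whether these genes differed with the agonist. As the members were chosen with earlier results of these data known, their shares beside all genes are not an independent result. In the 6 libraries together most members were higher with BRL, by small amounts, and none passed the test over all genes. By the quasi-likelihood test of edgeR, adjusted over all genes by Benjamini and Hochberg, 0 of 37 members rose and 0 fell, where 1.01% of all 12047 genes rose and 1.79% fell; limma-voom gave 0 that rose (against 0.789%), while 6 rose by DESeq2 (against 2.01% of all genes) and 8 by the exact test of edgeR (against 3.82%). With no filter on low counts 5 rose (against 1.40%), and 1 each after thinning (against 1.07%) and with a replicate block (against 0.523%). At an unadjusted p under 0.05, 13 of 37 were higher (35.1%, against 11.6% of all genes) and 0 lower (against 10.8%). The log2 fold change was above 0 in 33 of 37 members and in 50.7% of all genes, with a median of 0.26 over the members and 0.005 over all genes. Every BRL library lay above every vehicle library in 9 members (24.3%, against 16.0% of all genes) and below in 0 (against 15.5%), or below in 1 with library totals alone (against 13.2%) or after thinning (against 14.8%). Without BRL replicate 1, 13 members rose (35.1%, against 10.3% of all genes) and Atf6 fell (against 10.9%), and the median over members was again 0.26.

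**Figure D2:**
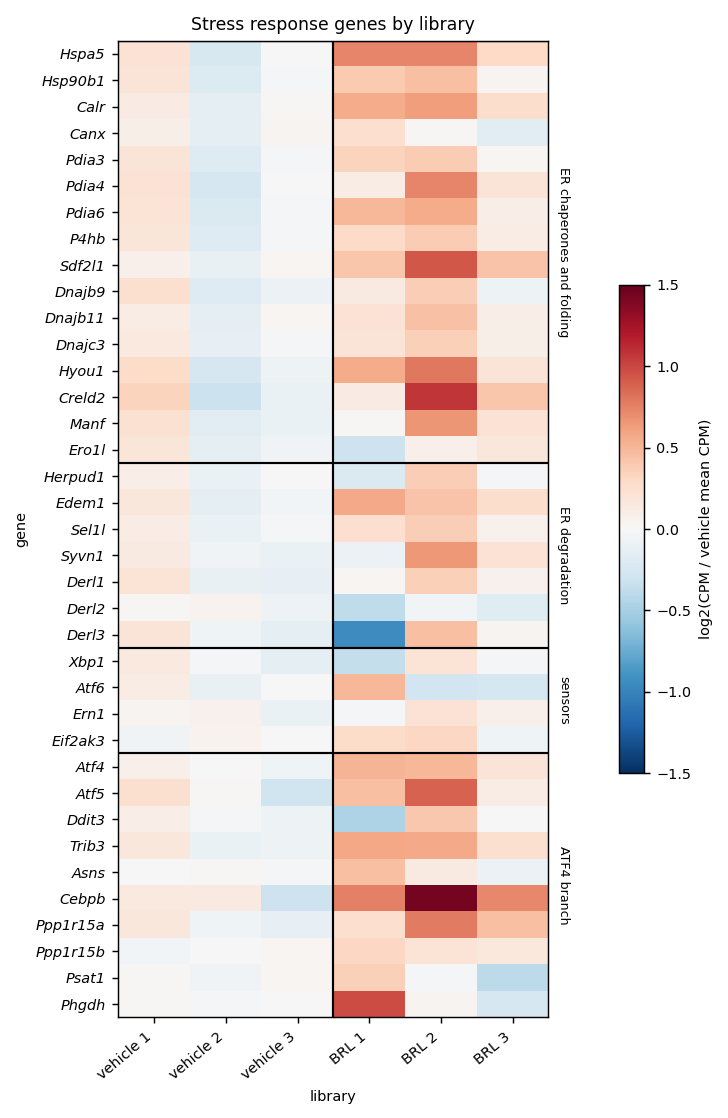
Level of each tested member in each library as log2 of its TMM-scaled CPM over the vehicle mean (colour), with members in rows by role and libraries in columns. Vehicle replicate 1 is the highest vehicle library for 31 of 37 members and BRL replicate 2 the highest BRL library for 26; Derl3 and Ddit3 are low and Atf6 and Phgdh high in BRL replicate 1.

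Among the ER chaperones, Hspa5, Calr and Sdf2l1 were higher in every BRL library than in any vehicle library. Values are TMM-scaled CPM in replicates 1, 2 and 3 of each group. Hspa5, the main HSP70 of the ER and the chaperone that holds the sensors, measured 2188, 1605 and 1873 CPM in vehicle and 3148, 3130.0 and 2328 CPM in BRL, or 1889 ± 292 against 2869 ± 468 CPM (SD, n = 3 in each group). BRL replicates 1 and 2 were high and close to each other, and replicate 3 stood just above the highest vehicle library. The log2 fold change was 0.60 ± 0.17 (SE, edgeR adjusted p = 0.098), and 0.54 ± 0.13 without BRL replicate 1, where Hspa5 rose (adjusted p = 0.0101). Calr measured 889, 738 and 827 CPM in vehicle and 1207, 1258 and 979.7 CPM in BRL, without overlap, with a log2 fold change of 0.49 ± 0.13 (adjusted p = 0.0881); without BRL replicate 1 it rose by 0.46 ± 0.10 (adjusted p = 0.00686). Sdf2l1, a small partner of BiP and its J proteins, had 70.2, 61.5 and 68.1 CPM and 88.7, 127 and 89.3 CPM. Its vehicle libraries lay close together and BRL replicate 2 was highest; the log2 fold change was 0.61 ± 0.15 (adjusted p = 0.075), and it rose by 0.70 ± 0.12 without BRL replicate 1 (adjusted p = 0.00183).

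Hyou1, the exchange factor that recharges BiP with ATP, measured 1399.8, 976 and 1104 CPM in vehicle and 1706, 2002 and 1322 CPM in BRL. Vehicle replicate 1 reached above BRL replicate 3, so the groups overlapped (log2 fold change 0.53 ± 0.19, edgeR adjusted p = 0.153). Creld2, an ER-resident protein with disulfide isomerase activity, had 78.7, 49.9 and 57.97 CPM and 67.8, 131 and 82.8 CPM, with BRL replicate 1 below vehicle replicate 1. Manf, a stress-induced protein of the ER that is also secreted, had 281, 216 and 224 CPM and 243, 381 and 279.8 CPM, and the disulfide isomerase gene Pdia4 412, 299 and 353 CPM and 382, 588 and 405 CPM. In all 3 genes BRL replicate 2 was the highest library and BRL replicate 1 lay within the vehicle range. For Manf and Pdia4, BRL replicate 3 lay within that range too, so their groups also overlapped without BRL replicate 1. These 4 genes rose in the fit without BRL replicate 1, by 0.52 ± 0.15 for Hyou1, 0.78 ± 0.18 for Creld2, 0.46 ± 0.12 for Manf and 0.49 ± 0.14 for Pdia4, with edgeR adjusted p of 0.0285, 0.00815, 0.017 and 0.0232.

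Hsp90b1, one of the most abundant chaperones, measured 1997, 1512 and 1727 CPM in vehicle and 2297, 2391 and 1791 CPM in BRL. Its groups overlapped, since vehicle replicate 1 was above BRL replicate 3, and it did not pass with or without BRL replicate 1 (0.31 ± 0.16, edgeR adjusted p = 0.297, and 0.138 without). Pdia6, Dnajb11, P4hb, Pdia3 and Dnajc3, which encode disulfide isomerases and J proteins, had log2 fold changes of 0.40, 0.26, 0.26, 0.26 and 0.22 with groups that overlapped. The J protein gene Dnajb9 had 0.16 ± 0.15, and Canx, the membrane-bound sister of calreticulin, 0.05 ± 0.14. Ero1l, the oxidase that recharges disulfide isomerases, had −0.0046 ± 0.15, with BRL replicate 1 the lowest library at 519 CPM, and its sign changed with library totals as the scaling. Of the 16 chaperones and folding factors, 15 had a log2 fold change above 0, the median was 0.32 and 6 had an unadjusted p under 0.05 (37.5%, against 11.6% of all genes). In 3 the groups did not overlap (18.8%, near the 16.0% of all genes), and without BRL replicate 1, 7 rose (43.8%, against 10.3%) and 0 fell. Without BRL replicate 2 the median was 0.20 over the chaperones and 0.17 over all members.

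The chaperones also moved together between libraries of the same group. In vehicle all 16 were highest in replicate 1 and all 16 lowest in replicate 2, where 34.9% and 33.6% of all genes tested had these libraries as highest and lowest. In BRL, 13 of 16 were highest in replicate 2 and 11 of 16 lowest in replicate 3 (32.7% and 24.5% of all genes). The summed level of the 16 genes was 12437.5, 9520.1 and 10774 CPM in vehicle replicates 1, 2 and 3 and 14535, 15632 and 11981 CPM in BRL replicates 1, 2 and 3. Vehicle replicate 1 was thus above BRL replicate 3 in the sum. Without vehicle replicate 1, 23 of 37 members had every BRL library above the remaining vehicle libraries (against 21.2% of all genes in that fit), the median log2 fold change of the chaperones was 0.44, and by edgeR 0 members rose (against 0.178%) and 0 fell (against 0.275%); without BRL replicate 3, 21 of 37 did not overlap (against 20.5%).

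**Figure D3:**
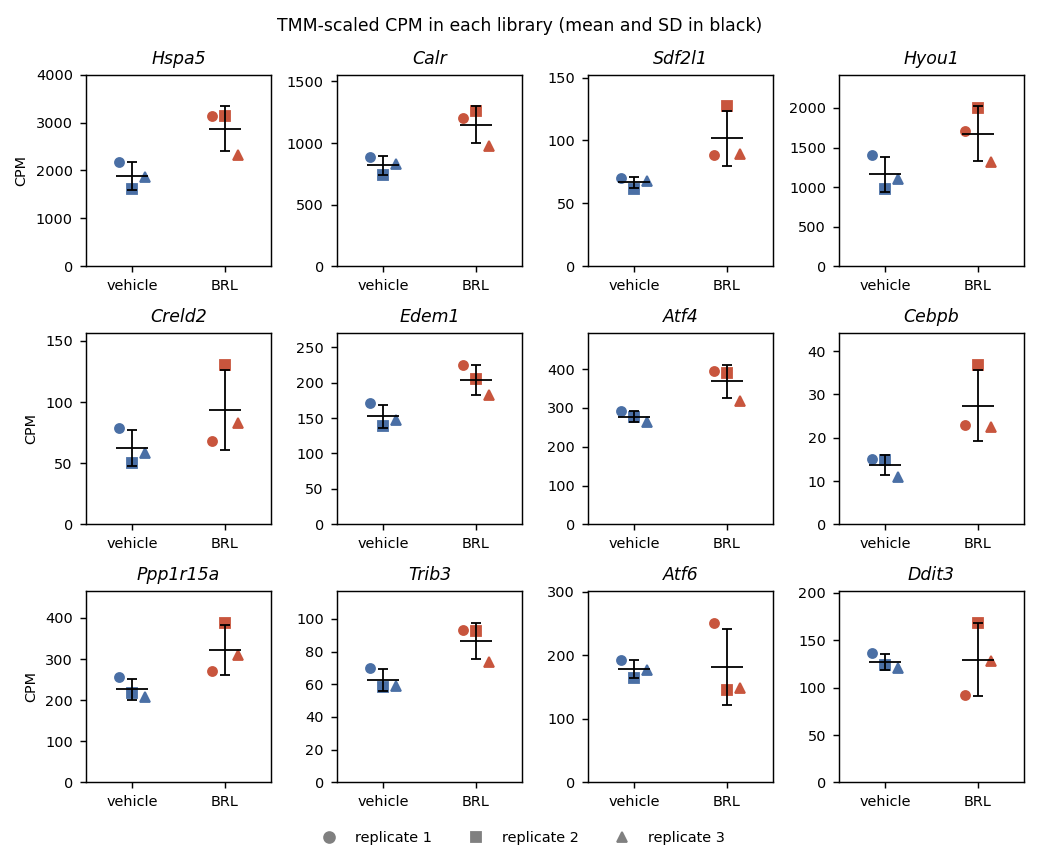
TMM-scaled CPM of 12 members in each library (symbols by replicate), with mean and SD in black. Hspa5, Calr, Sdf2l1, Edem1, Atf4, Cebpb, Ppp1r15a and Trib3 have every BRL library above vehicle, while Hyou1, Creld2, Atf6 and Ddit3 overlap.

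Among genes of ER-associated degradation, Edem1, which marks misfolded glycoproteins for export from the ER, was higher in every BRL library. It measured 171, 138 and 147 CPM in vehicle and 225, 205 and 183 CPM in BRL, with a log2 fold change of 0.42 ± 0.12 (edgeR adjusted p = 0.0958), and rose by 0.35 ± 0.09 without BRL replicate 1 (adjusted p = 0.0121). Syvn1, the ubiquitin ligase HRD1 of the ER membrane, had 130.3, 115 and 110.5 CPM and 111, 186 and 138 CPM, with BRL replicate 1 inside the vehicle range. It did not pass in all libraries (0.29 ± 0.18, adjusted p = 0.37) and rose without BRL replicate 1 by 0.46 ± 0.11 (adjusted p = 0.011). Sel1l, the partner that holds HRD1 to its substrates, had 186, 160.5 and 169 CPM and 204, 222 and 179 CPM and overlapped (log2 fold change 0.23 ± 0.11, adjusted p = 0.264).

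The Derlins, membrane proteins of the export channel, differed in the sign of their fold change. Derl2 measured 80.05, 82.2 and 75.00 CPM in vehicle and 60.9, 76.9 and 69.6 CPM in BRL, a log2 fold change of −0.19 ± 0.11 (edgeR adjusted p = 0.347), and Derl1 had 0.16. Derl3, also shown after its values were seen, had 66.6, 55.8 and 52.5 CPM and 30.3, 79.5 and 60.1 CPM, with BRL replicate 1 lowest and BRL replicate 2 highest of all libraries, so that its log2 fold change of −0.04 ± 0.30 joined opposite deviations; it was 0.26 ± 0.12 without BRL replicate 1 (adjusted p = 0.147). Herpud1, a scaffold of the degradation complex, had 0.06. The median over the 7 genes was 0.16, 0 passed in all libraries, 2 had a log2 fold change below 0, and 2 rose without BRL replicate 1 (28.6%, against 10.3% of all genes). That median was 0.05 without BRL replicate 2 and 0.28 without vehicle replicate 1.

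The sensors and XBP1 showed no difference that passed the test in all libraries. Their median log2 fold change was 0.06; it was 0.11 without either replicate 1, 0.13 without BRL replicate 3 and 0.04 without vehicle replicate 3. Xbp1 measured 271, 241 and 224 CPM in vehicle and 192, 282 and 241 CPM in BRL, with BRL replicate 1 lowest of the 6 (log2 fold change −0.04 ± 0.15, edgeR adjusted p = 0.899). Ern1 had 52.5, 53.5 and 47.6 CPM and 50.2, 59.7 and 54.1 CPM (0.09 ± 0.11, adjusted p = 0.652), and Eif2ak3 34.3, 36.9 and 35.3 CPM and 42.9, 43.9 and 33.8 CPM (0.18 ± 0.13, adjusted p = 0.446). Both pairs of groups overlapped. Atf6 measured 193, 164 and 177 CPM in vehicle and 251, 146 and 148 CPM in BRL, where BRL replicate 1 was the highest library and the other BRL libraries the lowest. Its log2 fold change was 0.03 ± 0.21 in all libraries (adjusted p = 0.953), and without BRL replicate 1 Atf6 fell (−0.27 ± 0.08, adjusted p = 0.0223).

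In the ATF4 branch, Atf4, Cebpb, Trib3, Ppp1r15a and Ppp1r15b were higher in every BRL library, though none passed over all genes. Atf5, Ddit3, Asns, Psat1 and Phgdh overlapped. Atf4 measured 291, 275 and 264 CPM in vehicle and 395, 391 and 318 CPM in BRL, without overlap (log2 fold change 0.41 ± 0.11, edgeR adjusted p = 0.0921), and rose by 0.36 ± 0.09 without BRL replicate 1 (adjusted p = 0.00951). Cebpb, a C/EBP factor that pairs with ATF4, had 15.02, 14.9 and 10.9 CPM and 23.03, 36.9 and 22.4 CPM. It had the largest log2 fold change of the members tested, 1.01 ± 0.23 (adjusted p = 0.0589), and passed in 6 of 17 alternatives, with adjusted p from 0.0022 to 0.267; it rose by 1.12 ± 0.21 without BRL replicate 1 (adjusted p = 0.0022). Ppp1r15a, the stress-induced subunit GADD34 that directs a phosphatase to eIF2, had 256, 217 and 208 CPM and 269.9, 389 and 309 CPM. BRL replicate 2 was high and replicate 1 just above the highest vehicle library; the log2 fold change was 0.51 ± 0.15 (adjusted p = 0.103), and 0.63 ± 0.10 without BRL replicate 1, where it rose (adjusted p = 0.000935). Trib3, a pseudokinase that restrains ATF4 and AKT, had 70.2, 58.1 and 59.2 CPM and 93.4, 92.3 and 73.6 CPM, again without overlap, with 0.47 ± 0.13 (adjusted p = 0.0921) and a rise of 0.41 ± 0.11 without BRL replicate 1 (adjusted p = 0.0178). Ppp1r15b, the constitutive counterpart of Ppp1r15a, did not overlap but differed by less (0.22 ± 0.09, edgeR adjusted p = 0.194). Atf5, a factor that is translated like ATF4, had 0.52 ± 0.21 (edgeR adjusted p = 0.192). Its groups overlapped, with 62.7 CPM in BRL replicate 3 against 68.6 CPM in vehicle replicate 1.

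Ddit3, the gene of the death-linked factor CHOP, measured 136, 124 and 121 CPM in vehicle and 91.99, 169 and 128 CPM in BRL. BRL replicate 1 was the lowest and BRL replicate 2 the highest of the 6 libraries (log2 fold change 0.02 ± 0.20, edgeR adjusted p = 0.958). The amino acid synthesis genes had another order. Asns, asparagine synthetase, had 180.5, 182 and 178 CPM and 246, 198 and 169 CPM (0.18 ± 0.14, adjusted p = 0.464), and the serine synthesis genes Phgdh and Psat1, shown after their values were seen, 153, 149.6 and 150.4 CPM and 297, 155 and 127 CPM, and 232, 222 and 235 CPM and 295, 226 and 175 CPM. In these 3 genes the vehicle libraries lay within a narrow range, BRL replicate 1 was the highest library and BRL replicate 3 the lowest, and without BRL replicate 1 the log2 fold changes were 0.03 ± 0.08, −0.10 ± 0.08 and −0.19 ± 0.09 in that order. Chac1, which breaks down glutathione, had 1 count in vehicle replicate 1 and 0 in the other libraries, under the floor of 3 counts (0.360 to 0.676 CPM), so it was not detected at this depth. Of the 10 tested genes of the branch all had a log2 fold change above 0, with a median of 0.38. An unadjusted p under 0.05 was found in 6 (against 11.6% of all genes) and no overlap in 5 (against 16.0%); without BRL replicate 1, 4 rose (against 10.3%), 0 fell and the median was 0.29.

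**Figure D4:**
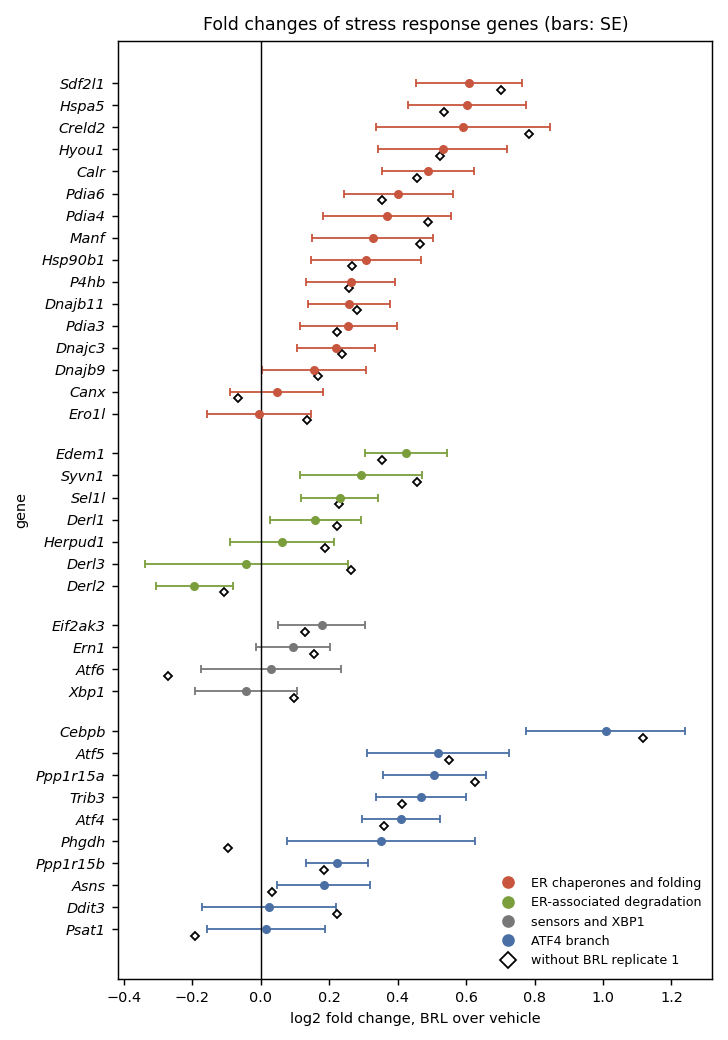
Log2 fold change of BRL over vehicle with its SE for 37 members (filled, by role) and the value without BRL replicate 1 (open diamonds). Cebpb lies farthest to the right at 1.01; Atf6, Phgdh and Psat1 lie below 0 without BRL replicate 1.

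Members with and without an ERSE are given side by side, with no test. The median log2 fold change was 0.31 over the 9 and 0.26 over the 23 tested members with a promoter entry and no ERSE. Of the other genes with an ERSE in the promoter, 9 were tested, the median was −0.11 and 0 passed. The 1 gene of these with a log2 fold change above 0 was Ero1lb (0.34 ± 0.12). It is itself an ER folding gene, counted below among the further folding factors. Sdf2l1 and Edem1, with no match in this window, were among the members with no overlap, and Canx, Derl3 and Dnajc3, with a match, were not.

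Further genes of the pathway, 141 in 7 lists of which 135 were tested, were read from the same fit. As these lists were chosen with earlier results of these data known, their shares are not an independent result. In all, 3 of the 135 rose (against 1.01% of all genes) and 0 fell by edgeR, with a median of 0.17. At an unadjusted p under 0.05, 35 were higher (25.9%, against 11.6%) and 2 lower (against 10.8%); without BRL replicate 1, 29 rose (21.5%, against 10.3%) and 3 fell (against 10.9%). Slc3a2, the heavy chain shared by several amino acid transporters and an ATF4 target, measured 306, 253 and 272 CPM in vehicle and 462, 479 and 412 CPM in BRL, without overlap (log2 fold change 0.70 ± 0.11, adjusted p = 0.0176). Krtcap2, a subunit of the oligosaccharyltransferase, measured 30.3, 31.3 and 28.2 CPM in vehicle and 45.0, 48.4 and 43.4 CPM in BRL (0.61 ± 0.11, adjusted p = 0.0248). Eif2b4, a subunit of the exchange factor on which phosphorylated eIF2 acts, measured 24.9, 25.6 and 25.7 CPM in vehicle and 35.2, 36.04 and 36.9 CPM in BRL (0.50 ± 0.10, adjusted p = 0.0402). In all 3 genes the groups did not overlap. Their expected counts were not whole numbers, and exons of Krtcap2 and Eif2b4 overlap Trim46 and Snx17 on the opposite strand. With any vehicle library or BRL replicate 2 left out none of the 3 passed (edgeR adjusted p from 0.0637 to 0.209), and without BRL replicate 3 Slc3a2 passed (0.0367) but Krtcap2 (0.0605) and Eif2b4 (0.0877) did not.

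By list, 1 of 19 genes of N-glycosylation and glycan trimming rose (against 1.01% of all genes). A log2 fold change above 0 was found in 17 of them (against 50.7%), and the median log2 fold change was 0.25. It was 0.19 for 21 further genes of ER-associated degradation, 0.17 for 21 further folding factors, 0.17 for 9 further sensors, proteases and factors, and 0.12 for 19 genes of the translocon, signal peptidase and TRAP complex, where 0 passed. For 13 genes of the eIF2 kinases, eIF2 and eIF2B it was 0.16, and for 33 further ATF4 targets 0.17. In each of these lists 1 gene rose (against 1.01% of all genes). Without BRL replicate 1 the last 2 medians were 0.04 and 0.06, and that of the further sensors, proteases and factors was 0.07. Median levels (log2 over the vehicle mean) in BRL replicates 1, 2 and 3 were 0.34, 0.11 and −0.02 for the eIF2 list and 0.20, 0.20 and −0.05 for the further ATF4 targets. Without BRL replicate 2 the median of the further ATF4 targets was 0.09, without BRL replicate 3 it was 0.30, and those of the eIF2 list and the further sensors were then 0.24 and 0.26. The translocon median was 0.27 without vehicle replicate 1 and 0.17 without BRL replicate 3. In lists where none passed, the genes of smallest p were Ssr2 of the TRAP complex (0.43 ± 0.13), the prolyl isomerase Ppib (0.37 ± 0.10), the ER lectin Erlec1 (−0.36 ± 0.10) and Wfs1, a protein of the ER membrane (0.47 ± 0.12), with edgeR adjusted p between 0.0705 and 0.103.

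Counts of Hsp90b1, Manf, Syvn1, Derl2, Atf5, Cebpb and Phgdh were not whole numbers, which RSEM gives where reads also map elsewhere, and their values are less certain. Exons of Atf5, Cebpb, Ddit3, Derl2, Dnajb9, Eif2ak3, Hsp90b1, Manf, Pdia3, Pdia4, Pdia6, Ppp1r15a, Ppp1r15b and Syvn1 overlap another annotated gene, and reads of such a pair may have been split or mixed.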

How the data were processed

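RNA-seq libraries of HL-1 cells, 3 with vehicle and 3 with BRL, were grouped by the labels. Per the submitters' processing notes, the authors used cutadapt, Bowtie, RSEM 1.17 and edgeR with the build NCBIM37, and deposited per gene an expected count, which splits reads shared between loci. The authors also deposited RSEM's transcript fraction, rescaled here to TPM for levels per length. How strand was treated is not stated. Expected counts were rounded, genes with low counts left out (filterByExpr, minimum count 10), libraries scaled by TMM and tested with edgeR 4.0.16 (quasi-likelihood, R 4.3.3) over 12047 genes, with Benjamini-Hochberg adjustment and a threshold of 0.05. The SE was taken from the fold change and its F statistic. Totals of 4440168 to 8332472 counts per library set the precision, and the floor of 3 counts covers counting error only. Counts within 0.005 of a whole number in all libraries were called whole. The procedure was run on simulated counts with known changes and a single dispersion for all genes. No simulated library stood apart as BRL replicate 1 does. The run therefore does not show how well differences of the members are detected in these libraries.

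Symbols came from GENCODE annotation of GRCm38, which named 28957 of 32739 identifiers (88.4%), and promoters from RefSeq; C-terminal retention signals were not analysed here. The members and lists were chosen with earlier results of these data known. Values per library are given for members past the threshold with or without BRL replicate 1, the 4 of smallest p in each role group, the sensors and main regulators, and those under the floor; of other pathway genes, those past the threshold are named with such values, and the gene of smallest p in each list with none is named by its fold change. Alternatives were DESeq2 1.42.0, limma-voom (limma 3.58.1), edgeR's exact test, other scalings and filters, thinned counts, mitochondrial genes left out, a replicate block and each library left out. The deposited table of the whole series was not used.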

Additional observations from a re-analysis of the deposited data

How the results depend on the processing

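The median log2 fold change of the members stayed above 0 under all 17 alternatives, from 0.17 to 0.37 with 1 library left out. Counts of calls depended on the tool and the libraries. Over all genes tested, 242 rose and 350 fell by DESeq2, 460 and 566 by edgeR's exact test, and 282 and 330 with no filter; 77 rose with library totals alone. With 1 library left out, between 17 and 1240 genes rose and between 15 and 1315 fell, both highest without BRL replicate 1. Members that rose numbered 6 by DESeq2, 8 by the exact test, 5 with no filter, 1 after thinning and 0 to 13 with 1 library left out; 0 to 1 fell. With 1 library left out, 9 to 23 members had every BRL library above and 0 to 1 every one below. The 23 came without vehicle replicate 1, where this held for 21.2% of all genes, against 16.0% with all libraries. Without BRL replicate 3 it was 21 members, against 20.5% of all genes. For the other fits with 1 library left out the share over all genes is not given here. Groups with fewer libraries separate more easily. Library totals and thinning each gave 1 below (against 13.2% and 14.8% of all genes). Deviations of same-numbered libraries from their group means had r = 0.102, −0.021 and −0.0176. With so few libraries these values cannot show whether the numbers pair them, and the labels do not say. With a replicate block 63 genes and 1 member, Cebpb, rose. Eif2b4 did not pass by DESeq2, limma-voom, upper-quartile factors, library totals, thinning or the replicate block, which left 0 in its list, and 0 to 2 rose there with 1 library left out. In N-glycosylation 3 rose by the exact test (against 3.82% of all genes), 2 with no filter (against 1.40%) and 0 to 5 with 1 library left out. These counts were 1, 1 and 0 to 2 in the further sensors. In the further ATF4 targets they were 2, 2 and 0 to 8. With 1 library left out, 0 to 2 translocon genes rose (median 0.12 to 0.27), and 0 to 6 further folding factors rose and 0 to 1 fell. Among further degradation genes 0 to 4 rose and 0 to 2 fell (median 0.13 to 0.18). In each of these lists the highest counts came without BRL replicate 1, where 10.3% of all genes rose and 10.9% fell. There 10.5% of the translocon genes rose, near that share, and 15.4% to 28.6% of the other lists. Fold changes near 0 changed sign: Ero1l to 0.0182 with library totals, 0.00482 without mitochondrial genes and 0.0183 with no filter; Atf6 to −0.0160 by limma-voom, −0.00300 after thinning and −0.0148 with the replicate block; Ddit3 to −0.0175 by limma-voom and −0.0130 with the block; Psat1 to −0.0185 by limma-voom, −0.00600 with upper-quartile factors and −0.0166 with the block. With 1 library left out, log2 fold changes ran from −0.0652 to 0.14 for Canx, −0.10 to 0.13 for Ero1l, −0.12 to 0.19 for Herpud1, −0.36 to 0.26 for Derl3, −0.18 to 0.10 for Xbp1, −0.27 to 0.17 for Atf6, −0.21 to 0.22 for Ddit3, −0.19 to 0.18 for Psat1 and −0.10 to 0.58 for Phgdh. The cause of these changes was not tested. At this depth Chac1 was under the floor.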
